A study of Mus musculus with 5 samples.

Results

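The 9 genes C1qa, C1qb, C1qc, C3, C6, Cfp, Vsig4, Cd55 and Susd4 of the complement system were followed through the cell classes of mouse liver after partial ligation of the inferior vena cava (pIVCL) or a sham operation. The members were taken by symbol, so they are 9 of the 19736 genes listed in the count files, and all 9 had molecules in all 5 libraries. All mice were wild-type males; surgery took place at 9 weeks of age and the livers were taken 2 weeks afterwards. Livers were perfused with enzymes, hepatocytes were depleted by slow spins, dead cells and red cells by a density gradient, and about 10000 viable cells were loaded per library on BD Rhapsody, a microwell platform that counts the 3′ ends of single-cell transcripts. There were 2 sham and 3 pIVCL libraries. Both sham libraries and pIVCL 1 belong to the batch labelled 2021.3, and pIVCL 2 and pIVCL 3 to the batch labelled 2021.7, so the second batch holds no sham library. No label states that the libraries are of separate animals, so p-values here measure the spread between libraries, which may be technical. Fits within batch 2021.3 hold pIVCL 1 as the only pIVCL library, and fits that leave out a sham library hold the other alone. Their p-values carry no spread within that group.

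Complement is a cascade of plasma and surface proteins. C1q, built from the A, B and C chains, starts the classical pathway when it binds antibody or altered surfaces. All pathways meet at C3, the central protein whose cleavage tags surfaces; properdin, the product of Cfp, stabilises the alternative-pathway enzyme that cleaves more C3. C6 is a part of the terminal complex that opens membranes. VSIG4, also called CRIg, is a macrophage receptor for C3 fragments that clears tagged particles from blood in the liver sinusoid. CD55, or decay-accelerating factor, dismantles C3-cleaving enzymes on the cell's own surface, and SUSD4 is a membrane protein with sushi domains that is described as a complement inhibitor.

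The libraries held 19815 cells, of which 16675 were retained, and between 12448260 and 30523228 molecules each. Cells were clustered without the complement genes and named from marker lists, so each class below is a rebuilt class (endothelial-like, Kupffer-like and so on). The endothelial class held 691 to 2522 cells per library and the Kupffer class, the resident macrophages of the sinusoid, 234 to 817. Unnamed clusters held 1626 cells. One of them, cluster 12, carried Kupffer and endothelial markers together; it had 39, 153, 20, 180 and 36 cells in sham 1, sham 2, pIVCL 1, pIVCL 2 and pIVCL 3 and held 4.87%, 21.4%, 9.27%, 36.1% and 9.85% of the C1qa molecules of those libraries, so class levels below leave out an uneven share of macrophage transcripts. Pairs of libraries shared 8 to 30 cell barcodes. Levels are given as molecules of a gene per 1000000 molecules of the class in that library (CPM). They come from 3′ counts and are compared within a gene, across classes and libraries, and not between genes.

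The sequences shown first are the promoter windows of C1qb and C1qc, which are neighbours of C1qa, and of Vsig4, because these genes had their highest level in the same class, Kupffer cells. RefSeq windows on GRCm38.p6, from 250 bases before to 50 after the start, were found for 8 of the 9 members; C1qa had no entry. Capitals mark a PU.1 core, GAGGAA, or a MAF half-site, TGCTGA, or their reverse complements; PU.1 and MAF factors are known regulators of macrophage genes. The windows are chr4:136886151-136886450 for C1qb, chr4:136892865-136893164 for C1qc and chrX:96293389-96293688 for Vsig4, all on the minus strand and printed 5′ to 3′ in the direction of the gene.
C1qb: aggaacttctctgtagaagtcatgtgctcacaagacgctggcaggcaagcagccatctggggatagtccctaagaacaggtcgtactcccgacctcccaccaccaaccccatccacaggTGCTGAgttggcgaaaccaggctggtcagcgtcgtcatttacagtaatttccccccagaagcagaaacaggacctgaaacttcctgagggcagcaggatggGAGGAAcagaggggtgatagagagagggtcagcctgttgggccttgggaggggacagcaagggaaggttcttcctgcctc
C1qc: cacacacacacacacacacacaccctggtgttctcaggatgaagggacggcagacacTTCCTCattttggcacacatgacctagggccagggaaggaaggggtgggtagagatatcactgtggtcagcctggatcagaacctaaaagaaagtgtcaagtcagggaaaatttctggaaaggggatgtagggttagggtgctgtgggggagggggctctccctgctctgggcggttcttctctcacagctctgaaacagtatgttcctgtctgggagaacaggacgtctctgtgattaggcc
Vsig4: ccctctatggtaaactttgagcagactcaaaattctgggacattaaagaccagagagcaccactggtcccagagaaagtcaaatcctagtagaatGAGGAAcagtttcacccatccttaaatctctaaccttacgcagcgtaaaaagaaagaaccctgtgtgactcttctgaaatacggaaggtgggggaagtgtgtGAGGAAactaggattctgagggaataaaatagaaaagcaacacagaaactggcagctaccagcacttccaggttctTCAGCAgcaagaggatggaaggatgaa

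The C1qb window held a MAF half-site at -131 and a PU.1 core at -30, counted from the start. The C1qc window held 1 PU.1 core on the reverse strand at -193. Vsig4 had PU.1 cores at -155 and -53 and a reverse MAF half-site at 24. These short motifs are common: of 32851 windows of the same length, 28.3% held the PU.1 core and 19.5% the MAF half-site on either strand. A longer interferon-factor repeat (GAAA, any 2 bases, GAAA, on either strand) was in 3.44% of all windows and in no window of the 8 members. The motifs were not limited to the genes high in Kupffer cells: of the endothelial members, Cd55 had 2 MAF half-sites and 1 window of Susd4 a PU.1 core, C3 had a MAF half-site and Cfp 2 PU.1 cores, while C6, which was highest in Kupffer cells, had neither. These are matches of letters, not measured binding.

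Kupffer cells were the class with the highest level of 6 of the 9 genes: the 3 C1q chains, C6, Cfp and Vsig4. C1qa averaged 2266 CPM over the 5 libraries in Kupffer cells, against 1079 in the mixed class of monocytes and macrophages low in the Kupffer gene Clec4f, and the ranges of the 5 libraries did not meet (2021 to 2590 and 964 to 1170). Stellate cells and fibroblasts held C1qa at 151 CPM on average, over a wide range of 8.40 to 344. In endothelial cells, T cells, NK cells with innate lymphoid cells, and dendritic cells C1qa averaged 7.26 to 11.5 CPM, and the ranges of these 4 classes met. Vsig4 averaged 2971 CPM in Kupffer cells and 282 in the mixed monocyte and macrophage class, again with separate ranges. C6 averaged 1539 CPM in Kupffer cells, 219 in stellate cells and fibroblasts (range 121 to 348) and 36.1 in the monocyte and macrophage class. Cfp fell off less steeply, from 1849 CPM in Kupffer cells to 410 in monocytes and Clec4f-low macrophages and 143 in conventional dendritic cells, and these last classes had meeting ranges.

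**Figure D1:**
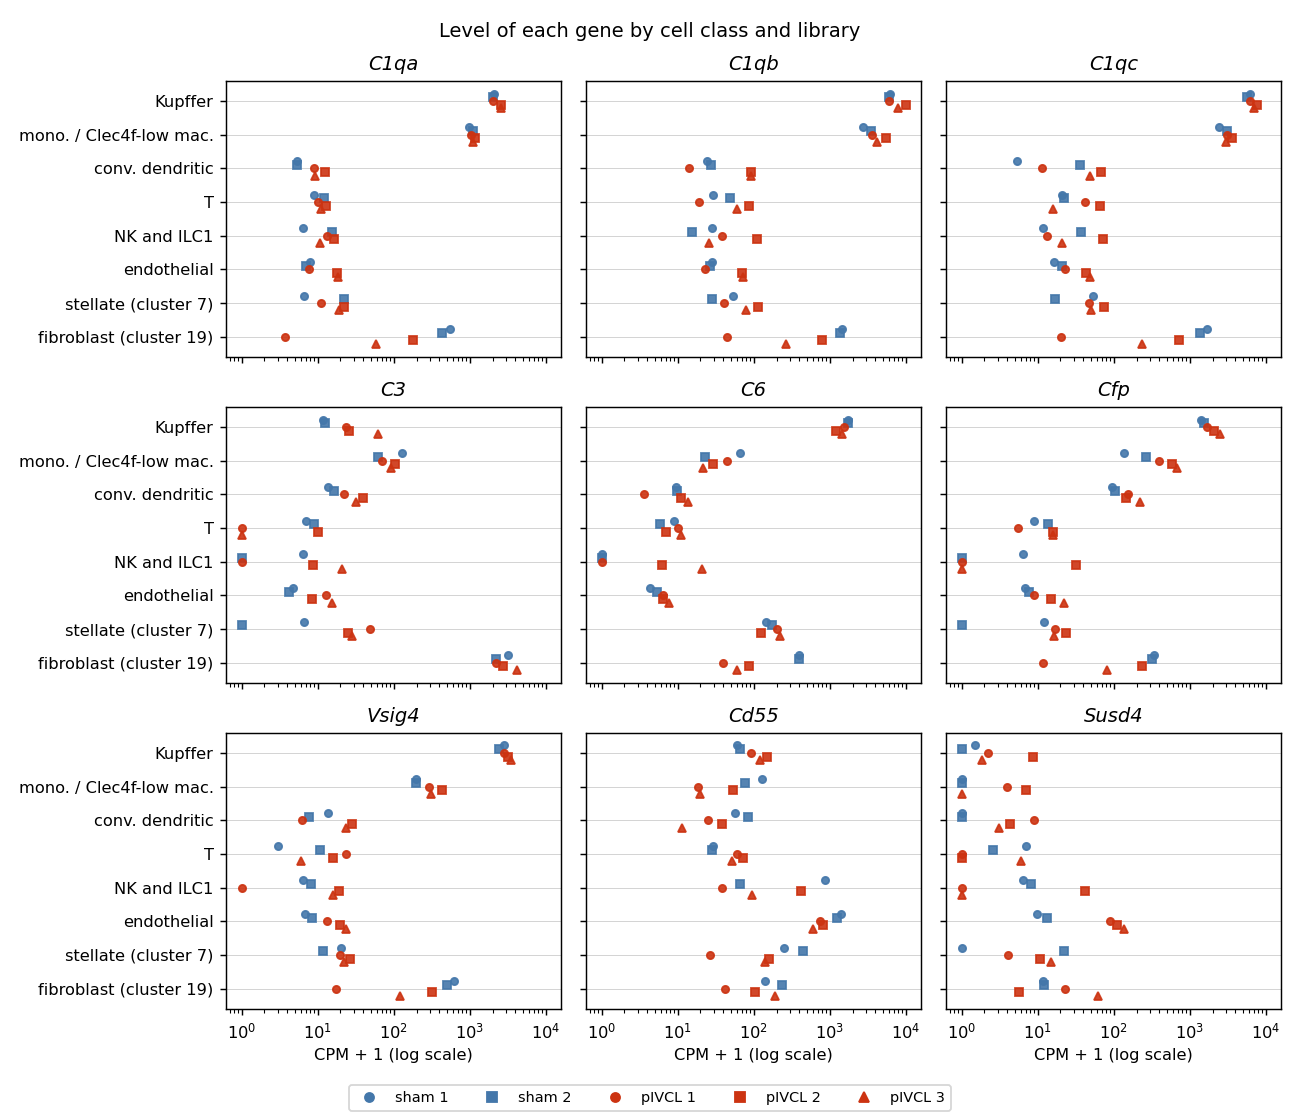
Level of each of the 9 genes (CPM + 1, log scale) by cell class, 1 point per library (blue sham, red pIVCL). The 6 macrophage-weighted genes peak in Kupffer cells, C3 in the fibroblast cluster, and Cd55 in endothelial cells. Susd4 peaks in the endothelial cells of the pIVCL libraries.

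The other 3 genes peaked elsewhere. C3 was highest in fibroblast cluster 19, a cluster of the stellate and fibroblast class, with 3166 and 2217 CPM in sham and 2249, 2707 and 4138 CPM in pIVCL 1, 2 and 3. The groups overlapped there. All 5 mesothelial markers were also found in cluster 19 in each library. They made up 0.244% and 0.133% of its molecules in sham and 0.125%, 0.181% and 0.225% in pIVCL 1, 2 and 3. Fibroblast markers made up 0.272% and 0.379% in sham and 0.839%, 0.475% and 0.237% in pIVCL. The name fibroblast cluster 19 therefore covers both cell types, and their parts in its values were not tested. Stellate cluster 7, of the same class, held C3 at 0 to 48.4 CPM. In small classes that were not tested, C3 lay at 436 to 695 CPM in cholangiocytes and 443 to 1619 CPM in the hepatocytes that escaped depletion. Cd55 was highest in endothelial cells, at 965 CPM on average, and B cells, which had 16 cells in the smallest library and were not tested, held 502 to 823 CPM. Susd4 averaged 70.9 CPM in endothelial cells, with a range of 8.68 to 135 over the libraries. This peak came from the pIVCL libraries. In sham Susd4 averaged 10.4 CPM in endothelial cells and 9.87 CPM in stellate cells and fibroblasts. Hepatocytes, not tested and as few as 4 in a library, averaged 31.4 CPM in sham. Unnamed cluster 15, with large-vessel markers, was at 17.5 and 22.4 CPM in sham.

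In the likeness of patterns over 35 class-by-library sums (7 classes, 7996 genes), which share libraries and composition and carry no test, C1qa was nearest to C1qc and C1qb (Pearson r = 0.983 for both) and then to the macrophage adhesion receptor Siglec1 (0.980). Vsig4 was nearest to the Kupffer genes Cd5l (0.980) and Clec4f (0.965). C6 was nearest to Apoc1 (0.935) and the ficolin gene Fcna (0.919), and Cfp to Aif1 (0.968). Cd55 was nearest to Fam167b (0.905) and the endothelial adhesion gene Pecam1 (0.902). C3 reached 0.879 with Tmem119, and Susd4 0.838 with Xpc.

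The C1q chains were found together in single cells. All 3 chains had a molecule in 100%, 100%, 98.7%, 99.7% and 96.6% of Kupffer cells of sham 1, sham 2, pIVCL 1, pIVCL 2 and pIVCL 3. Of C1q molecules in these cells, C1qa gave 12.8% to 14.9%, C1qb 42.1% to 49.4% and C1qc 37.8% to 43.7%, as tags counted and not as protein chains. In monocytes and Clec4f-low macrophages 51% to 68% of cells had all 3 chains and 28% to 38% had none, so this class was divided in its C1q. Among endothelial cells, which held the chains at a low level, 67.6% to 82.5% of cells had none. The parts of free RNA and of joined captures in that low level were not tested.

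Susd4 rose in endothelial cells after pIVCL. It was at 8.68 and 12.2 CPM in the sham libraries (118 and 140 molecules) and at 88.7, 110 and 135 CPM in pIVCL 1, 2 and 3 (608, 757 and 443 molecules). The 3 pIVCL libraries were all far above both sham libraries. The group means were 10.4 ± 2.47 CPM (SD, n = 2) and 111 ± 23.1 CPM (SD, n = 3), and the log2 fold change was 3.32 (SE 0.22; edgeR, adjusted p = 0.000450), or 9.96-fold. With each cell thinned to 1000 molecules, 0.990% ± 0.00178 (SD, n = 2) of sham and 8.98% ± 0.921 (SD, n = 3) of pIVCL endothelial cells held a Susd4 molecule; unthinned, the shares were 4.25% and 29.7%. In thinned Kupffer and T cells the share was at most 0.647% in any library. Median molecules per cell before thinning were 4129 to 5174 in endothelial, 5745 to 9692 in Kupffer and 2386 to 3233 in T cells, and only 2 endothelial cells were left out as shallower. Within batch 2021.3, pIVCL 1 against both sham libraries gave 3.04, so the rise was nearly as large with no second batch.

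Endothelial Cd55 moved the other way. It was at 1411 and 1259 CPM in sham 1 and sham 2 and at 748, 809 and 598 CPM in pIVCL 1, 2 and 3. The groups did not overlap. The log2 fold change was -0.97 (SE 0.18, adjusted p = 0.0202, edgeR), a level 1.97-fold lower. The share of thinned endothelial cells with a Cd55 molecule was 68.5% ± 3.38 (SD, n = 2) in sham and 45.9% ± 5.81 (SD, n = 3) after pIVCL. Within batch 2021.3, where pIVCL 1 is the only pIVCL library, the change was -0.89. The call was lost without sham 1 (adjusted p = 0.189), without sham 2 (0.103) and with batch as a term (0.0769), with a log2 change of -1.09 to -0.83 under all alternatives run. The neighbouring paralog Cd55b was at no more than 1.8 CPM, and how reads common to the pair were assigned is not given in the sources used here.

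C3 and Vsig4 rose in endothelial cells from a low level. C3 was at 3.79 and 3.22 CPM in sham and 11.8, 7.43 and 14.3 CPM in pIVCL, on 267 molecules in all, with a log2 change of 1.56 (SE 0.31, adjusted p = 0.0283). Vsig4 was at 5.81 and 7.48 CPM in sham and 12.1, 18.8 and 22.8 CPM in pIVCL (log2 change 1.31, SE 0.28, adjusted p = 0.0327). Neither gene's groups overlapped. The C3 call was lost without sham 1 (adjusted p = 0.206), sham 2 (0.227) or pIVCL 3 (0.0785), and the Vsig4 call without any 1 of the libraries other than pIVCL 1 (0.0914 to 0.290) and within batch 2021.3 (0.81, adjusted p = 0.0721) or with batch as a term (0.83, adjusted p = 0.138). Both genes stayed far below their levels in fibroblast cluster 19 (C3) or Kupffer cells (Vsig4). The Kupffer gene Clec4f in the same cells was at 8.90 and 16.6 CPM in sham and 14.2, 22.1 and 24.05 CPM in pIVCL, and unlike those of Vsig4 its groups overlapped. Vsig4 per Clec4f molecule was 0.653 and 0.450 in sham and 0.856, 0.849 and 0.949 in pIVCL endothelial cells, against 0.560 and 0.481 in sham and 0.567, 0.620 and 0.655 in pIVCL Kupffer cells. The 9 Kupffer markers summed to 0.0393% and 0.0407% of endothelial molecules in sham and 0.0346% to 0.0441% in pIVCL, all within a narrow range. Whether free or joined Kupffer RNA has a part in the Vsig4 value was not tested. Hepatocyte markers, from cells that make C3, were at 0.0263% and 0.0143% in sham and 0.0448% to 0.0541% in pIVCL endothelial cells, and their part in the C3 value was not tested.

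These 4 calls, 3 higher and 1 lower, stood among 9 members tested in endothelial cells, where 5.96% of 11251 genes were called (3.16% higher and 2.79% lower). DESeq2 called 5 members and 10.2% of genes. Groups that did not overlap were common in this class, at 44.4% of genes. The remaining 5 members had positive log2 changes that did not pass: C1qa 0.97 (SE 0.38), C1qb 0.93 (0.47), C1qc 0.98 (0.30), Cfp 1.05 (0.35) and C6 0.50 (0.30), with adjusted p from 0.103 to 0.331. C1qb was at 27.2 and 25.6 CPM in sham, 22.2 CPM in pIVCL 1, and 68.7 and 72.5 CPM in pIVCL 2 and 3; pIVCL 1 lay below both sham libraries. Within batch 2021.3 the C1qb change was -0.31 and the C1qa change -0.01. Without pIVCL 1, 8 members passed in place of 4, in a fit where batch and operation cannot be told apart. The share of all genes called in that fit is not given here.

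**Figure D2:**
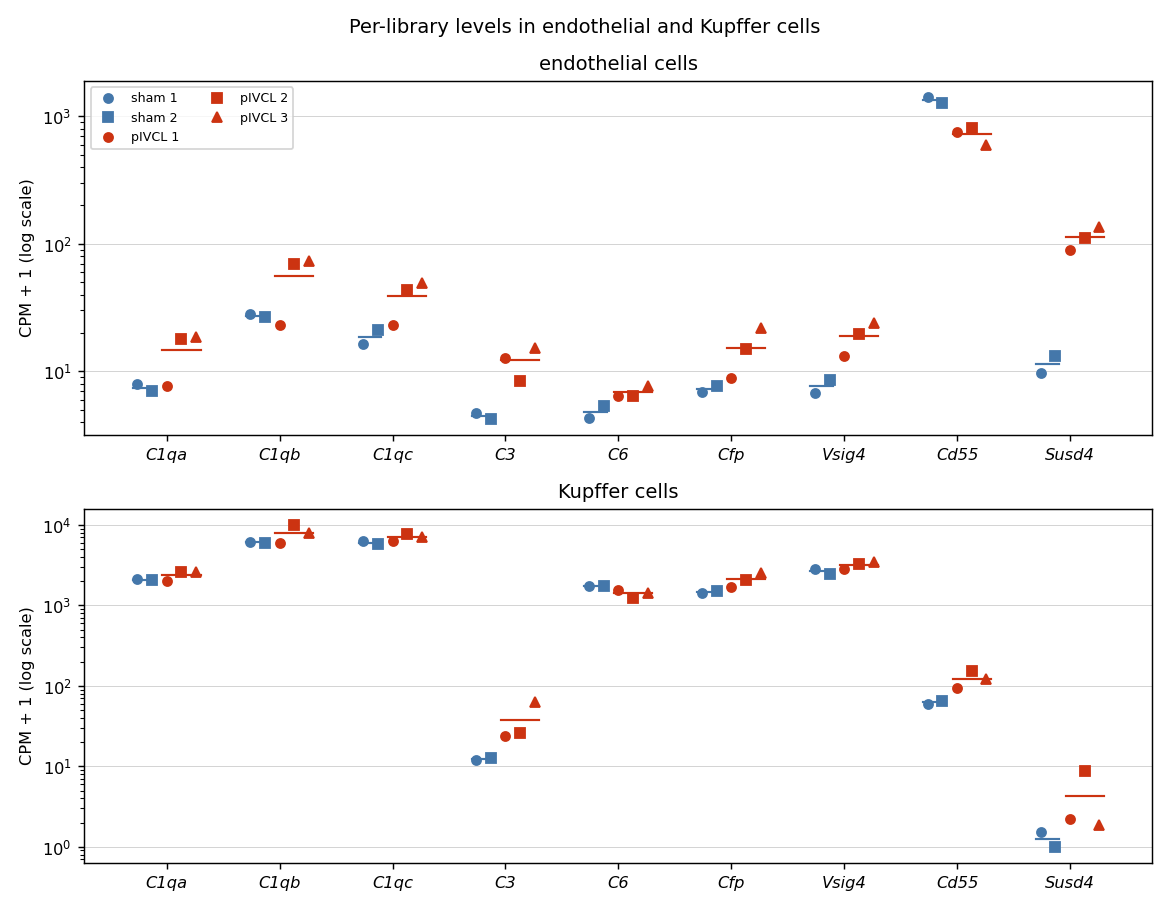
Levels (CPM + 1, log scale) of the 9 genes in endothelial and Kupffer cells, 1 point per library (blue sham, red pIVCL), with bars at the group means. In endothelial cells Susd4 is at 8.68 and 12.2 CPM in sham and 88.7 to 135 CPM in pIVCL and Cd55 is lower in pIVCL; in Kupffer cells the C1q chains of sham and pIVCL overlap.

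The endothelial class is made of clusters whose proportions changed with the operation. Cluster 1, with the tip-cell genes Esm1 and Angpt2, held 1.61% ± 0.202 (SD, n = 2) of sham and 42.5% ± 7.43 (SD, n = 3) of pIVCL endothelial cells. Cluster 4, with the pericentral genes Kit and Wnt2, held 24.9% ± 3.88 (SD, n = 2) and 1.28% ± 1.49 (SD, n = 3). Clusters were then compared using libraries with at least 20 cells of the cluster. Susd4 was higher in every pIVCL library than in every sham library in 8 of 8 clusters, and Cd55 was lower in 8 of 8. In clusters 3 and 4 only 1 pIVCL library had enough cells, and in clusters 2 and 23 only 2 had. Vsig4 was higher in 6 of 8 clusters and overlapped in 2, and C3 was higher in 5, lower in 1 and overlapped in 2. Both rest on low levels. Vsig4 in cluster 2 averaged 6.21 CPM in sham and 7.34 CPM in pIVCL. C3 in cluster 4 was lower at 3.39 CPM in sham and 0 CPM in its 1 pIVCL library. The share of all genes that separate within clusters was not computed. It was 44.4% in the whole class, and the clusters come from the same 5 libraries. Groups separate more easily where fewer pIVCL libraries are compared, so that share is no baseline for clusters 2, 3, 4 and 23. In cluster 1 Susd4 differed between the sham libraries, at 15.6 and 71.9 CPM on 37 and 39 cells, and was at 124, 137 and 161 CPM in pIVCL. Cluster 5 held the arterial-side genes Dll4 and Efnb2 at 604 and 379 CPM, and cluster 6 held them at 529 and 461 CPM. Cluster 5 also held Esm1 at 365 CPM, against 941 CPM in cluster 1. Susd4 in cluster 5 was at 27.6 and 31.4 CPM in sham and 53.0, 59.3 and 68.6 CPM in pIVCL, a ratio of means of 2.04. In cluster 9, with Rspo3 and Wnt9b, it was at 9.6 and 40.9 CPM in sham and 157, 182 and 169 CPM in pIVCL. The ratio of means ranged from 1.82 in cluster 6 to 7.60 in cluster 4, all below the 10.7 of the whole class. Cd55 in cluster 1 was at 1219 and 1150 CPM in sham and 660, 752 and 585 CPM in pIVCL; in cluster 9 it was lower in all 5 libraries, at 762 and 757 against 605, 617 and 493 CPM. In cluster 15, outside the class, Cd55 was at 450 and 516 CPM in sham and 422, 347 and 441 CPM in pIVCL, again lower in each pIVCL library but by a small gap (a ratio of means of 0.834), and Susd4 overlapped, at 13.9 to 51.3 CPM.

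**Figure D3:**
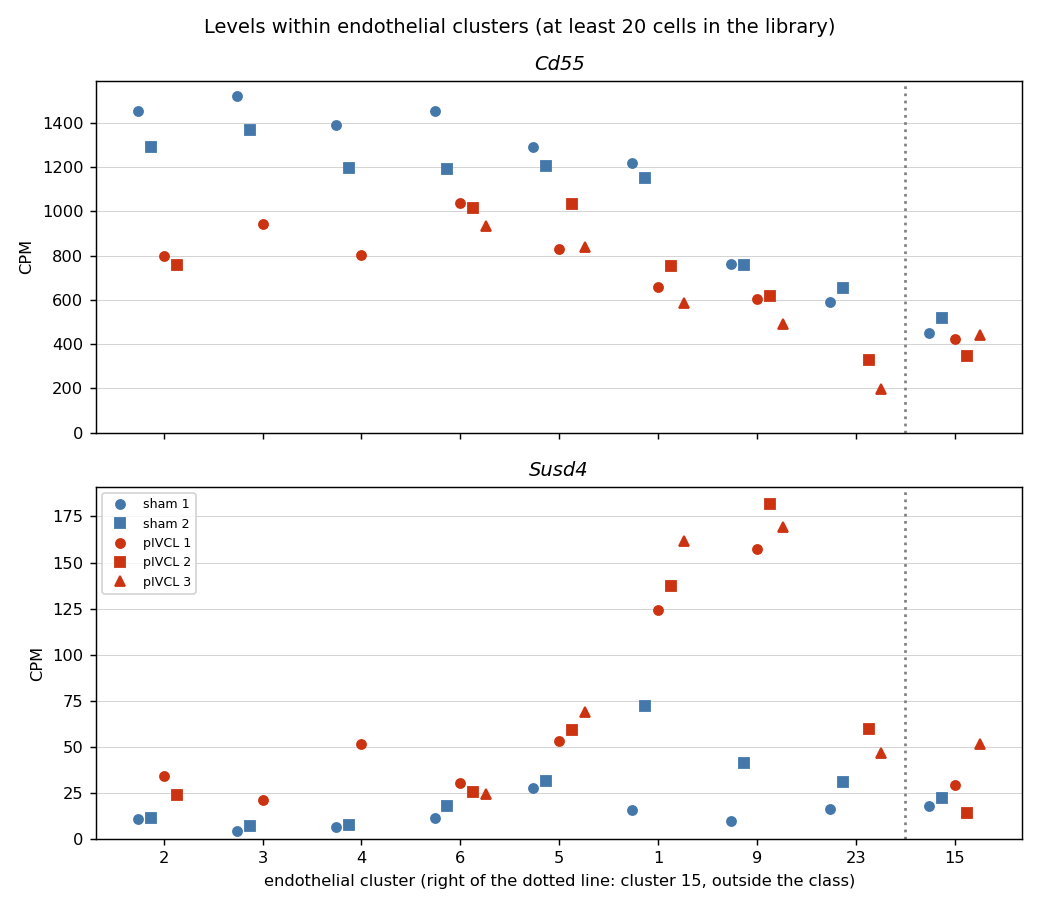
Cd55 and Susd4 (CPM, axes from 0) within each endothelial cluster, 1 point per library with at least 20 cells (blue sham, red pIVCL). In the 8 clusters left of the dotted line every pIVCL point is below the sham points for Cd55 and above them for Susd4; in cluster 15 the Susd4 points overlap and the Cd55 points lie close together, with pIVCL lower.

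In Kupffer cells no member passed the edgeR test, of 8 tested, where 0.123% of 9783 genes were called (0.0511% higher and 0.0716% lower); 4 members had an unadjusted p under 0.05, and DESeq2 called 2 members and 1.21% of genes. Groups did not overlap for 31.1% of genes in this class. C1qa was at 2095 and 2044 CPM in sham and 2021, 2590 and 2579 CPM in pIVCL. The groups overlapped: pIVCL 1 lay just below both sham libraries and the libraries of batch 2021.7 lay above them, while C1qb was at 6195 and 5953 CPM in sham and 6008, 9997 and 7998 CPM in pIVCL. The log2 changes were 0.18 (SE 0.14) for C1qa, 0.36 (0.19) for C1qb and 0.19 (0.14) for C1qc; within batch 2021.3 they were -0.05, -0.04 and 0.04. Properdin, Cfp, was at 1418 and 1524 CPM in sham and 1692, 2071 and 2537 CPM in pIVCL; these groups did not overlap, and the change of 0.48 (SE 0.17) missed the threshold (adjusted p = 0.267). C6 was at 1726 and 1753 CPM in sham and at 1553, 1225 and 1440 CPM in pIVCL, lower in each pIVCL library, with a change of -0.34 (SE 0.14, adjusted p = 0.321). Vsig4 was at 2843 and 2458 CPM in sham and 2838, 3232 and 3486 CPM in pIVCL, with groups that overlapped. C3 was at 10.95 and 11.7 CPM in sham and 22.7, 24.8 and 61.8 CPM in pIVCL (log2 change 1.67, SE 0.45, adjusted p = 0.227), and 29 of the 142 C3 molecules of pIVCL 3 came from 1 cell.

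The values of Cd55 in Kupffer cells lay the other way from those in endothelium. Cd55 was at 58.7 and 64.3 CPM in sham and 91.9, 150 and 119 CPM in pIVCL, with no overlap, and its log2 change of 0.94 (SE 0.20) had an adjusted p of 0.120. The Cd55 call was made in 5 of the 17 alternatives run. Among them were DESeq2 (adjusted p = 0.0122), no filter (0.91, adjusted p = 2.16e-05) and resolution 2 (1.04, adjusted p = 0.0285). Another was without pIVCL 1 (1.10, adjusted p = 0.00437), where batch and operation cannot be told apart. The last, chosen after seeing the data, was Kupffer cluster 0 alone (1.08, adjusted p = 0.0339, with 0.264% of genes called). Within batch 2021.3 the change was smaller, at 0.56, as it was in the fit that holds batch as a term (0.56, adjusted p = 0.478). Endothelial markers made up 0.0983% and 0.0946% of Kupffer molecules in sham and 0.0866%, 0.126% and 0.0644% in pIVCL, with overlapping groups. Per 100 molecules of those markers, Cd55 had 5.97 and 6.80 molecules in sham Kupffer cells and 10.6, 11.9 and 18.5 in pIVCL. In endothelial cells the same ratio was 6.46 and 6.11 in sham and 3.98, 4.22 and 3.33 in pIVCL, so the sham ratios of both classes were close and the pIVCL ratios lay apart. Susd4 had 4, 0, 2, 17 and 2 molecules in Kupffer cells and was not tested.

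**Figure D4:**
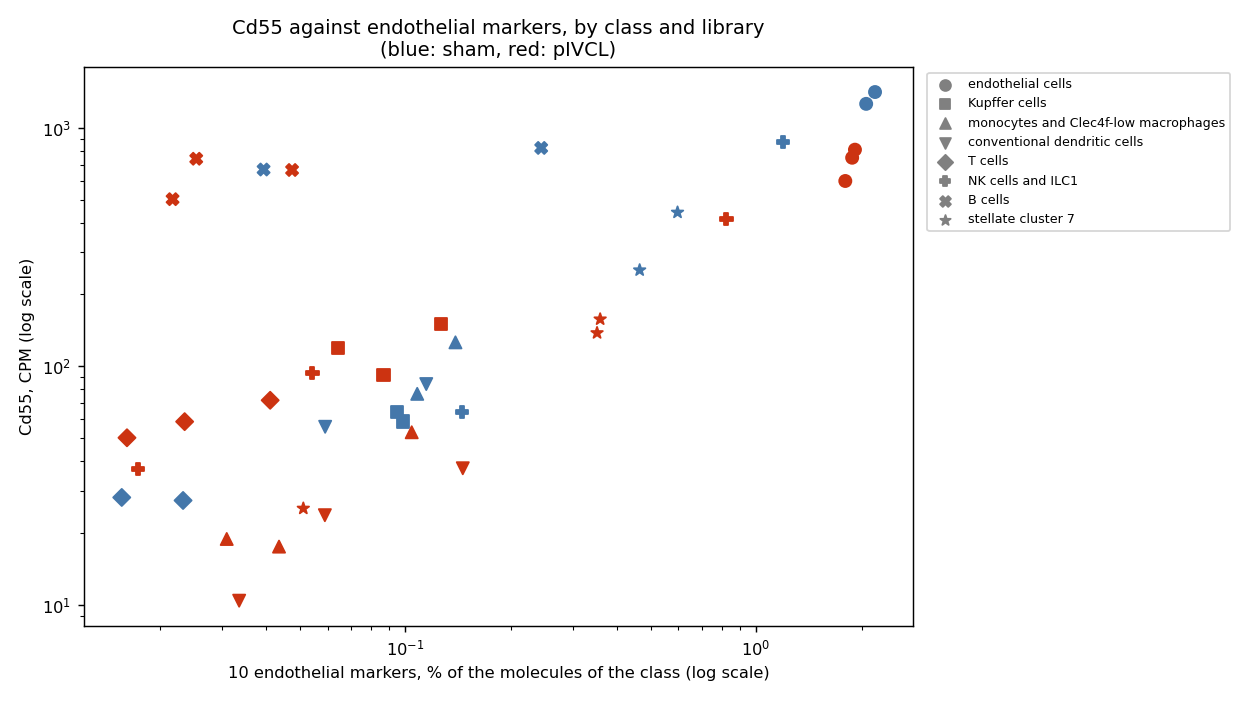
Cd55 (CPM, log scale) against the share of molecules from 10 endothelial markers (log scale), 1 point per class and library (blue sham, red pIVCL; marker shape gives the class). Endothelial points sit at 1.80% to 2.18% and 598 to 1411 CPM; B cells hold Cd55 at 502 to 823 CPM.

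The difference of the pIVCL effect between endothelial and Kupffer cells was itself tested, with the library as a block. It was -1.90 on the log2 scale for Cd55 (SE 0.23, adjusted p = 0.0154, edgeR), 1.08 for Vsig4 (SE 0.20, adjusted p = 0.0474) and 0.86 for C6 (SE 0.18, adjusted p = 0.0478). These 3 of 9 members stood beside 1.22% of 11951 genes called (0.661% higher and 0.561% lower); DESeq2 called 1 member and 1% of genes. The Cd55 difference was -1.42 within batch 2021.3, where pIVCL 1 is the only pIVCL library. Without sham 1 or without sham 2 no member passed (Cd55 -1.74, adjusted p = 0.276, and -2.04, adjusted p = 0.154), and without pIVCL 2 or pIVCL 3 only Cd55 did. The endothelial side of the Vsig4 and C6 differences rests on 452 and 191 molecules.

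In stellate cells and fibroblasts 5 of 9 members were called, all lower in pIVCL, where 4.44% of 9910 genes were called (1.96% higher and 2.48% lower, and 6.76% by DESeq2, which called 6 members). Groups did not overlap for 39.8% of genes. The members called were C1qa (log2 change -3.54, SE 0.54, adjusted p = 0.0271), C1qc (-3.29, SE 0.49, 0.0239), Vsig4 (-3.02, SE 0.46, 0.0241), Cfp (-2.66, SE 0.41, 0.0236) and C6 (-1.01, SE 0.20, 0.0346). Without sham 1 or sham 2 none of the 5 passed (adjusted p from 0.121 to 0.327), C6 did not pass without pIVCL 2 (0.106), nor C1qa without pIVCL 3 (0.0522). With stricter limits on cells, where C1qa and Cfp did not enter the test, and with finer clusters, no member passed, and C6 was at 0.10 and 0.11. Of the remaining members, C1qb had a log2 change of -2.87 (SE 0.59, adjusted p = 0.0593), C3 of -1.07 (SE 0.65, 0.444), Cd55 of -0.91 (SE 0.67, 0.521) and Susd4 of 0.74 (SE 0.74, 0.644), none past the threshold. Kupffer markers moved with them, at 0.339% and 0.393% of the class's molecules in sham and 0.0310%, 0.0586% and 0.0657% in pIVCL, with 9 of 9 markers detected in each. The make-up of the class also moved: stellate cluster 7 had 77 and 31 cells in sham and 272, 327 and 106 in pIVCL, and fibroblast cluster 19 had 54 and 77 in sham and 45, 35 and 52 in pIVCL. Their part in the class values was not tested beyond splitting the clusters. In cluster 7 alone, an alternative added after seeing the data, no member passed (0.524% of genes called). The 5 members called in the class had positive changes there. They were C1qa 0.66, C1qc 0.70, Vsig4 0.57, Cfp 1.49 and C6 0.33 (adjusted p from 0.515 to 0.784). C1qb was at 0.99 (adjusted p = 0.572), C3 at 3.28 (0.115) and Cd55 at -1.56 (0.604). In cluster 19 alone 1 member passed, C6 at -2.73 (SE 0.31, adjusted p = 0.00468; 1.47% of genes called).

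The C6 fall in cluster 19 moved with Kupffer transcripts in that cluster. C6 was at 398 and 394 CPM in sham and 38.3, 85.5 and 59.2 CPM in pIVCL, with no overlap, and the macrophage receptor gene Vsig4 was at 630 and 503 against 16.4, 323 and 121 CPM. The Kupffer markers were at 0.529% and 0.483% in sham and 0.0219%, 0.239% and 0.102% in pIVCL. C6 per Vsig4 molecule was 0.633 and 0.782 in sham cluster 19 and 0.607 and 0.713 in sham Kupffer cells. In pIVCL 1, 2 and 3 it was 2.33, 0.265 and 0.491 in cluster 19 and 0.547, 0.379 and 0.413 in Kupffer cells. The pIVCL 1 ratio of cluster 19 rests on 6 Vsig4 molecules. The part of Kupffer RNA in the C6 values of cluster 19 was not tested. In stellate cluster 7 the ratio was 7.43, 16, 11.1, 4.83 and 10.4 in sham 1, sham 2, pIVCL 1, pIVCL 2 and pIVCL 3, above every Kupffer library (0.379 to 0.713), with C6 at 145 and 172 CPM in sham and 205, 125 and 222 CPM in pIVCL. So cluster 7 held more C6 per Vsig4 than Kupffer cells did in any library, and its groups overlapped; the ratios rest on 2 to 48 Vsig4 molecules per library.

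**Figure D5:**
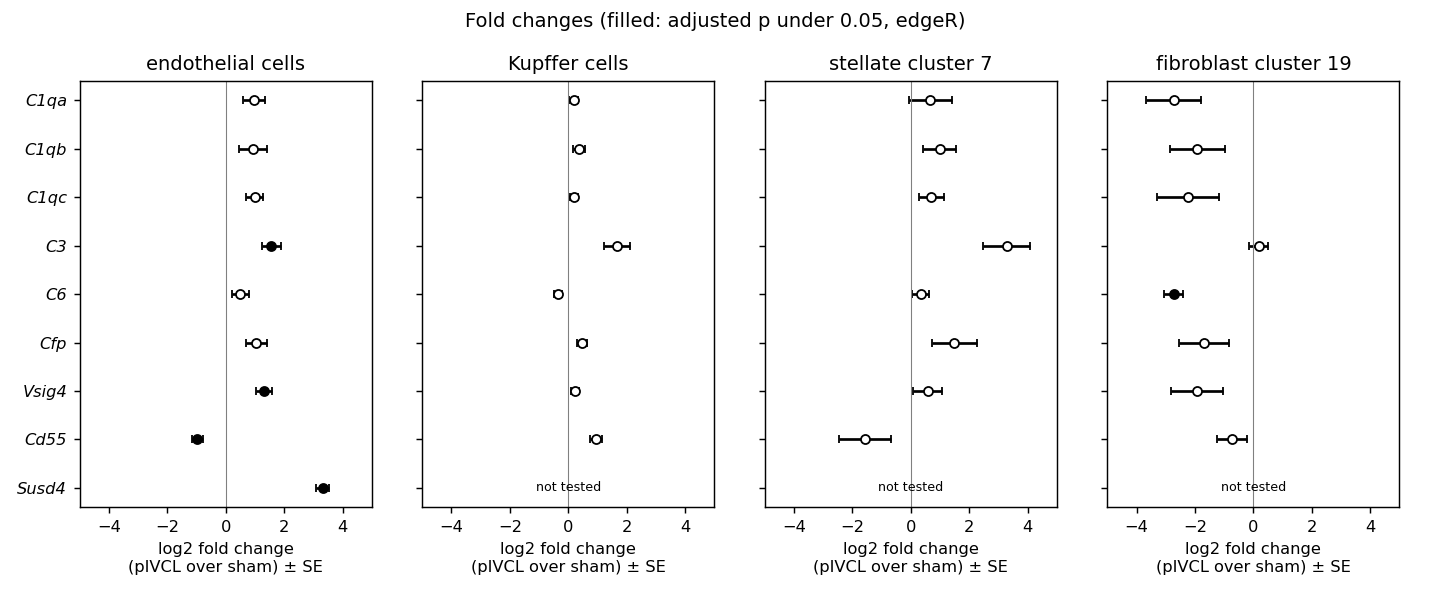
Log2 fold changes (pIVCL over sham) ± SE of the 9 genes in endothelial cells, Kupffer cells, stellate cluster 7 and fibroblast cluster 19. Points are filled where the adjusted p of edgeR is under 0.05. Endothelial cells have 3 members higher and 1 lower, and C6 is lower in cluster 19. No point is filled in Kupffer cells or in cluster 7.

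In the other classes tested no member passed the edgeR test. In monocytes and Clec4f-low macrophages 0 of 8 passed (0.117% of 5966 genes called; 4 members had an unadjusted p under 0.05 and DESeq2 called 1 and 0.285% of genes). Groups did not overlap for 27.1% of genes in this class. Cfp had the smallest adjusted p there: it was at 137 and 266 CPM in sham and 389, 588 and 670 CPM in pIVCL, with no overlap (log2 change 1.44, SE 0.30, adjusted p = 0.0913). In the Clec4f-low macrophages of finer clusters, an alternative added after seeing the data, Cfp passed at 1.68 (adjusted p = 0.0222). The other members tested in that fit did not pass, and the share of all genes it called is not given here. Vsig4 in monocytes and Clec4f-low macrophages was at 194 and 193 CPM in sham and 287, 427 and 309 CPM in pIVCL, with no overlap, and did not pass (0.79, SE 0.24, adjusted p = 0.224). C1qb there was at 2753 and 3482 CPM in sham and 3639, 5421 and 4210 CPM in pIVCL (0.48, SE 0.20, adjusted p = 0.464). C1qa (0.06), C1qc (0.20), C3 (-0.13) and C6 (-0.64) had adjusted p from 0.732 to 0.962. Cfp was also at 94.4 and 102 CPM in sham dendritic cells and 153, 146 and 219 CPM in pIVCL, without passing (0.73, adjusted p = 0.266). Cd55 was lower in these cells, at 126 and 76.6 CPM in sham and 17.6, 52.9 and 18.9 CPM in pIVCL monocytes and macrophages (-1.78, adjusted p = 0.121), where endothelial markers were also lower, at 0.139% and 0.108% against 0.0436%, 0.104% and 0.0309%. In NK cells Cd55 ranged from 37.1 to 871 CPM, and the endothelial markers from 0.0173% to 1.19%, with the highest of both in sham 1 (Cd55 change -1.35, SE 1.49, adjusted p = 0.998). T cells had Cd55 at 28.2 and 27.4 CPM in sham and 58.6, 72.0 and 50.2 CPM in pIVCL (1.08, adjusted p = 0.293). Dendritic cells had Cd55 at 55.8 and 84.3 CPM in sham and 23.8, 37.4 and 10.4 CPM in pIVCL. The log2 change was -1.51 (SE 0.42, adjusted p = 0.1296, edgeR). These groups did not overlap, as was so for 28.1% of genes in dendritic cells. The other members tested there were C3 (1.06), C1qb (1.36), C1qc (1.11) and Vsig4 (0.93), with adjusted p from 0.483 to 0.772, and in T cells C1qb (0.55) and C1qc (0.91), with 0.691 and 0.581. In dendritic cells 0 of 6 members passed (0.519% of genes called; 2 at an unadjusted p under 0.05, 0 by DESeq2, which called 0.445% of genes), in T cells 0 of 3 (0.0832%; 1 and 0) and in NK cells 0 of 1 (0%; 0 and 0).

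Over all retained cells, 1 of 9 members was called, Susd4, which was at 5.89 and 8.44 CPM in sham and 52.4, 60.4 and 50.8 CPM in pIVCL (log2 change 2.85, SE 0.23, adjusted p = 0.0191). The call was lost without sham 1 (2.60, adjusted p = 0.214), sham 2 (3.13, 0.186) or pIVCL 2 (2.74, 0.128). Of all genes 1.08% were called (0.83% higher and 0.255% lower), and 7.98% by DESeq2, which called 3 members; groups did not overlap for 41.6% of genes. In these sums fewer cells of a type and less RNA per cell cannot be told apart. Endothelial cells gave 69.5% to 93.0% of the Susd4 molecules of a library. They gave 87.4% and 84.8% of Cd55 molecules in sham and 89.3%, 65.6% and 58.5% in pIVCL, and B cells gave 17.02% in pIVCL 3, which had 489 of them. C6 over all cells was at 544 and 508 CPM in sham and 284, 272 and 368 CPM in pIVCL (-0.87, adjusted p = 0.0708), beside the smaller Kupffer numbers of the pIVCL libraries. Cd55 over all cells had a change of -0.99 (adjusted p = 0.133), and the other 6 members changes of -0.31 to 0.53 (adjusted p from 0.530 to 0.998).

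Of a wider list of 52 complement genes, 51 were in the files, members included. In endothelial cells 5 of 37 tested were higher and 3 lower, beside 3.16% and 2.79% of all genes. The list had a median log2 change of 0.73 against 0.01 for all genes. The hepatocyte markers given above were also higher in these cells in each pIVCL library; many complement genes are made by hepatocytes, and the part of hepatocyte RNA in the list's median was not tested. Besides the members, Clu, whose product clusterin restrains the terminal complex, was at 9.1 and 10.6 CPM in sham and 30.3, 29.98 and 57.2 CPM in pIVCL (1.86, adjusted p = 0.0116). Cholangiocytes held Clu at 13249 to 28295 CPM, and the part of their free RNA in this value was not tested. Colec10, a collectin of the lectin pathway, was at 3.38 and 3.22 CPM in sham and 9.19, 11.8 and 19.5 CPM in pIVCL (1.89, adjusted p = 0.0164). Stellate cells and fibroblasts held Colec10 at 563 and 413 CPM in sham and 2262, 2380 and 1783 CPM in pIVCL, so it was far higher there, and the part of their free RNA in the endothelial value was not tested. Colec12, a scavenger collectin, changed by -0.93 (adjusted p = 0.0397). The membrane regulators Cr1l (-0.51, adjusted p = 0.136) and Cd59a (0.23, adjusted p = 0.332) did not pass, nor did C4b (0.85, 0.162) or the receptor C5ar1 (-0.31, 0.732). Without sham 1 or without sham 2 none of the calls of Clu, Colec10 and Colec12 held (adjusted p from 0.0805 to 0.388). The Clu call was also lost with cluster 15 in the class (0.57, adjusted p = 0.121), Colec10 without pIVCL 2 (0.0606), and Colec12 without pIVCL 2 (0.108) or pIVCL 3 (0.0850).

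In Kupffer cells 1 of 34 listed genes passed, Clu, at 3.3 and 5.7 CPM in sham and 17.8, 22.95 and 25.2 CPM in pIVCL (2.30, adjusted p = 0.0328), a call lost without any 1 of the libraries other than pIVCL 1 (Clu adjusted p from 0.0838 to 0.248). C3ar1 (-0.02), C4b (0.35), C5ar1 (0.30), Cd59a (0.66) and Cr1l (-0.43) did not pass there. Of all genes in that class 0.123% were called. In stellate cells and fibroblasts 2 of 33 were higher and 9 lower, beside 1.96% and 2.48% of all genes. C3ar1 (-2.80, adjusted p = 0.0110), C5ar1 (-3.14, 0.0499) and Itgb2 (-3.17, 0.0193), which encode receptors of leukocytes, fell, as did the Kupffer markers given above, and C4b fell by 1.85 on the log2 scale (0.0467). Colec10 (2.27, adjusted p = 0.0109) and Masp1, a lectin-pathway protease gene (1.61, 0.0449), rose in the class; in stellate cluster 7 alone they were at 0.95 (adjusted p = 0.0680) and 0.42 (0.439). None of these 6 calls held without sham 1 or without sham 2, and C5ar1, C4b and Masp1 were also lost without pIVCL 1 or pIVCL 2, and Itgb2 without pIVCL 2. None of the list passed in the 4 smaller classes, with 1 call by DESeq2, in monocytes and macrophages. Over all cells Colec10 passed with Susd4 (2.93, adjusted p = 0.0311), and was lost without sham 1, sham 2 or pIVCL 2.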

How the data were processed

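The authors deposited 1 table per library of molecule counts per cell and gene, made with the BD WTA Rhapsody Analysis Pipeline 1.9.1 per the file headers, after its correction of molecular identifiers; GRCm39 is named in the submitters' processing notes. Cells with at least 500 molecules, 200 genes and at most 25% mitochondrial molecules passed (17188 of 19815). Scrublet's own threshold marked 14 cells, so the top 3% of scores in each library were removed, leaving 16675. Cells were clustered with scanpy 1.11.5 (Leiden, resolution 1, 2000 variable genes, 30 components, 20 neighbours) without the complement genes, and classes were named from marker lists. Counts were summed per library and class and tested with edgeR 4.0.16 (quasi-likelihood, TMM, filterByExpr, R 4.3.3) over all genes of a class with at least 20 cells in every library, at a Benjamini-Hochberg adjusted p of 0.05; DESeq2 1.42.0 was an alternative. An exact permutation over the 10 splits of 2 against 3 libraries cannot go below 0.1, so none is given. The models were tested on simulated counts with known changes: of genes changed 2-fold, 56.3% were recovered in endothelial cells (11025 genes), 54.2% in Kupffer cells (9586 genes) and 15.9% in stellate cells and fibroblasts (9537 genes), and of genes changed 4-fold, 96.6%, 93% and 72.7%. False calls were 20 of 128, 10 of 105 and 12 of 63, above the share the threshold sets. Free RNA was not removed, so shares of cells are given beside those of other classes. Members, marker lists and the wider complement list were chosen with earlier results of these data known, and support no independent claim. All members tested in a class are named there; of the wider list, each gene that passed and C3ar1, C5ar1, Cr1l, C4b and Cd59a (1 further gene of the list is counted but not reported here); and for likeness (log2 of CPM + 1, classes with at least 20 cells in every library) up to the 3 nearest genes. Alternatives were another scaling, no filter, batch as a term or batch 2021.3 alone, a replicate block, leaving out each library, stricter cell limits (1000 molecules, 10% mitochondrial), doublets kept, complement genes kept in the clustering, and resolution 2. Cluster-wise tests and the class with cluster 15 were added after seeing the data.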

Additional observations from a re-analysis of the deposited data

Results flagged for a closer look

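The effects on 3 genes differed between endothelial and Kupffer cells by the test of the difference itself, on the log2 scale with the library as a block. The Cd55 effect of pIVCL in endothelial cells minus that in Kupffer cells was -1.90 (adjusted p = 0.0154, edgeR), the Vsig4 effect differed by 1.08 (adjusted p = 0.0474) and the C6 effect by 0.86 (adjusted p = 0.0478). Cd55 was lower in 3 of 3 pIVCL libraries in endothelial cells and higher in 3 of 3 in Kupffer cells. For C6 the pIVCL libraries were higher in endothelial cells, on 191 molecules in all, and lower in Kupffer cells. Of all genes tested 1.22% were called. C6 lost its call in 12 of the 15 alternatives run, Vsig4 in 6 and Cd55 in 2.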

How the results depend on the processing

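Of 687 values of members under alternatives, 543 kept their direction and their side of the threshold, 64 no longer passed, 57 newly passed and 23 changed sign. Susd4 in endothelial cells passed under all 18 alternatives run (3.04 to 3.57). Members called in endothelial cells numbered 4, and 7 with no filter, 2 with batch as a term and 1 with the replicate block; leaving out 1 library gave 1 to 8. In Kupffer cells 0 became 3 with no filter, 2 with DESeq2, 1 at resolution 2 and 1 in cluster 0 alone, and 0 to 2 without 1 library. In stellate cells and fibroblasts 5 became 8 in batch 2021.3 alone, 0 with stricter cell limits, 0 at resolution 2, 0 in cluster 7 alone and 1 in cluster 19 alone, and 0 to 6 without 1 library (0 without sham 1 or sham 2). Over all cells 1 became 2 with no filter, 8 in batch 2021.3 alone, 2 with the replicate block and 3 with DESeq2, and 0 to 3 without 1 library. The difference between endothelial and Kupffer effects went from 3 calls to 1 with batch as a term and 1 with DESeq2, and 0 to 6 without 1 library. In the other classes 0 became 3 with no filter, 1 in batch 2021.3 alone, 1 with the replicate block, 1 with DESeq2, 2 with doublets kept and 4 with stricter limits, and 0 to 3 without 1 library. The wider list had 20 calls, 50 with no filter, 41 in batch 2021.3 alone, 36 with DESeq2 and 11 at resolution 2, and 2 to 38 without 1 library. The share of all genes called is not given for most of these alternatives, so the counts do not set complement genes apart from other genes. In batch 2021.3 alone pIVCL 1 is the only pIVCL library. The cause of these shifts was not tested.

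Values that changed sign were, in endothelial cells, C1qa (-0.0061 in batch 2021.3 alone) and C1qb (-0.29 with batch as a term, -0.31 in the batch alone); in Kupffer cells C1qa (-0.053 and -0.055) and C1qb (-0.035 and -0.036) under the same settings. In cluster 7 alone they were C1qa 0.66, C1qb 0.99, C1qc 0.70, C3 3.28, C6 0.33, Cfp 1.49 and Vsig4 0.57, and in cluster 19 alone C3 0.18. C6 in stellate cells and fibroblasts was 0.10 with stricter limits and 0.11 at resolution 2, and Susd4 there -0.31, -0.30 and -0.075 (replicate block), and -0.090 to 1.34 without 1 library, the lowest without pIVCL 3. Cd55 was 2.72 in macrophages of finer clusters and -0.014 in T cells with complement genes kept.

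Libraries of the same number deviated from their group means with correlations within 0.0515 of 0. With 2 sham libraries the deviations of sham 1 and sham 2 mirror each other. These values therefore cannot show whether the numbers pair libraries. Under the replicate block Cd55 in endothelial cells had an adjusted p (edgeR) of 0.0639, C3 of 0.0596 and Vsig4 of 0.0638. The block was not run for the difference between classes, where the library is already one, and resolution 2 and the clustering with complement genes do not apply to all cells. Without pIVCL 1 the batch and the operation cannot be told apart. Low molecule counts limit C3, Vsig4 and C6 in endothelial cells (267, 452 and 191 molecules in all). Shares cover counting error only.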
